A study of Mus musculus with 16 samples.

Results

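Calvaria, the bones of the skull vault, from mice that lacked both copies of Axin2 and 1 copy of Runx2 were compared with wild-type calvaria across all named genes that lay above the array median on 3 or more arrays. The mice with both defects are written A-KO:R-Het and the wild-type mice WT, as the labels abbreviate them. The comparison used 8 of the 16 deposited arrays, 4 of each genotype, and 9918 genes of the 16593 gene symbols on the array. All mice were male and taken at postnatal day 7, each array held the RNA of a single mouse, and no treatment is named for any group. The other genotypes were A-KO (Axin2-/-) with 4 arrays, 1 of them labelled damaged and left out, and R-Het (Runx2+/-) with 4 arrays. They entered the same fit, so that 15 arrays gave 1 estimate of the spread for each gene. Strain, littermate status and the cells in which the alleles act are not stated in the labels, which name the alleles only as null and heterozygous. Whole calvaria hold bone, suture, marrow, vessels and attached tissue. A lower level in such a bulk sample can come from fewer cells of a type or from less RNA per cell, and these cannot be told apart.

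Axin2 is a scaffold of the complex that marks beta-catenin for destruction, and since Wnt signalling itself induces Axin2, it acts as a feedback brake on the pathway. Runx2 is the transcription factor without which osteoblasts do not form, and it also acts in maturing chondrocytes. Bones of the skull vault form directly from mesenchyme at their edges in the sutures, without a cartilage template, while osteoclasts, large cells of the blood lineage, resorb bone by secreting acid and enzymes. The comparison addressed how gene expression of the skull vault departs from wild type when the Wnt brake is absent and the Runx2 dose is reduced at once.

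Most markers that define bone were high. Col1a1, the collagen of bone, and Bglap, osteocalcin, were among the brightest genes on each of the 8 arrays. Their log2 intensity ran from 13.96 to 14.55 and from 14.20 to 14.66. The osteoblast markers Alpl, Ibsp and Sp7 lay at percentile 96.3 of the probes or higher on every array. Dmp1, of the same set of markers, was dimmer, from 7.52 to 8.67, with a lowest percentile of 68.5. Probes for Gfap and Snap25 of brain and for Krt5 and Krt14 of skin did not pass the filter. Other markers of these tissues were measured, with Mbp, of myelin, from 7.19 to 8.85 and Krt10, a keratin, from 8.998 to 9.45 over the 8 arrays. The Axin2 probe read 7.61, 7.42, 7.77 and 7.88 in WT and 7.39, 7.44, 7.40 and 7.74 in A-KO:R-Het (adjusted p = 0.541, values of log2 intensity). The labels do not place this probe relative to the deleted part, so it checks no label. Runx2 is not analysed here.

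Some arrays stood apart before any gene was tested. Skeletal muscle genes were highest on replicates 1 and 3 of WT and on R-Het replicate 4, with list medians of 1.48, 2.08 and 2.11 above the mean of the 15 arrays (log2), and the A-KO:R-Het arrays ran from -1.68 to 0.94. The second principal component, which held 16.2% of the variance, was -13.1, -5.9 and -7.1 on A-KO:R-Het replicates 2, 3 and 4 but 11.9 on replicate 1. Replicate 1 was also high in genes of the meninges, the membranes under the skull: Ptgds read 9.47 there and 6.16 to 6.83 on the other 14 arrays, and Slc13a4 read 8.42 there and 6.66 to 7.28 on the others. Counts are therefore also given without these arrays.

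Promoters of 4 genes are shown, 2 that rose and 2 that fell, since Runx2 and the partners of beta-catenin act by binding DNA. The windows come from RefSeq on build GRCm38.p6, are 300 bases long, cover mainly sequence before the annotated start and are written 5′ to 3′ on the gene's strand. Capitals mark the motifs searched on both strands, namely TGTGGT (RUNX factors), AACAAT (SOX factors), CTTTGA (TCF/LEF, the partners of beta-catenin) and CACGTG (the E-box of lysosomal gene regulators, among others). No 2 matches overlapped in these windows. Epyc, a small proteoglycan of cartilage, lies on the plus strand at chr10:97643818-97644117, and Matn4, a matrilin of the cartilage matrix, on the minus strand at chr2:164405111-164405410. Acp5, the tartrate-resistant acid phosphatase of osteoclasts, lies on the minus strand at chr9:22135697-22135996, and Glb1, lysosomal beta-galactosidase, on the plus strand at chr9:114400828-114401127.
Epyc: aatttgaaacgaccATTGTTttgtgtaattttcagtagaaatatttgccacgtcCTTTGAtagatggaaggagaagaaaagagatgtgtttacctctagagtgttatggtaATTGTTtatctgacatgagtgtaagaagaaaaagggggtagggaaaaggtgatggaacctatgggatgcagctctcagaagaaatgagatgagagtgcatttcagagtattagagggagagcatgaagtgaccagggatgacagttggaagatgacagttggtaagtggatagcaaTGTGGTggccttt
Matn4: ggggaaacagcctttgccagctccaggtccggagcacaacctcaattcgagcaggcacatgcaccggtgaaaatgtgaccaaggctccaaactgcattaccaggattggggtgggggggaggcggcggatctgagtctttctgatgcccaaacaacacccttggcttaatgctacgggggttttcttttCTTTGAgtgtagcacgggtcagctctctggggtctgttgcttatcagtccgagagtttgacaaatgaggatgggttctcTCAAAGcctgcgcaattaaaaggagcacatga
Acp5: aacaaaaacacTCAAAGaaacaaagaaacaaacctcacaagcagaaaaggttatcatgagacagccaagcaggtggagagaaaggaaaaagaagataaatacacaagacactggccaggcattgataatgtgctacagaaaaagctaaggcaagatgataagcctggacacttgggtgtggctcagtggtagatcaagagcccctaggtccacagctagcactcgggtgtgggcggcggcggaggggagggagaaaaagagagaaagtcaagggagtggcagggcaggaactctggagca
Glb1: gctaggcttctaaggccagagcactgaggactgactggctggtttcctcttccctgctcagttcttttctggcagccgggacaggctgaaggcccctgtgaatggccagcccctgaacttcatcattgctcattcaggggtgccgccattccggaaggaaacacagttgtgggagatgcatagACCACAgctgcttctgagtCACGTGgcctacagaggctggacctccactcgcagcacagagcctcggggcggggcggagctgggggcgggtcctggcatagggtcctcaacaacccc
The Epyc window held 1 RUNX, 2 SOX and 1 TCF/LEF match, the Matn4 window 2 TCF/LEF matches, the Acp5 window 1 TCF/LEF match, and the Glb1 window 1 RUNX and 1 E-box match. Each is the window that the table lists first for its gene. Of the windows not shown, the further 1 of Matn4 and both further ones of Acp5 held 0 matches, the further 1 of Epyc held 3 SOX matches and 1 TCF/LEF match, and Glb1 has no other.

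These motifs are common. Of all 32851 windows in the table, 16.8% held the RUNX letters, 10.7% the SOX letters, 16.0% the TCF/LEF letters and 7.15% the E-box. For the genes tested, of which 8009 of 9918 had a window, the shares were 12.8%, 6.11%, 12% and 9.52%. Of the genes that rose, 70 of 89 had a window, and of their 88 windows 10.2%, 3.41%, 10.2% and 12.5% held the respective motif. Of those that fell, 71 of 98 had a window, and of their 100 windows 20%, 5%, 21% and 8% did. These shares describe letters in a window, were not tested, and name no bound site.

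In all, 187 genes differed between A-KO:R-Het and WT, 1.89% of those tested (limma, Benjamini-Hochberg adjusted p under 0.05). The rises numbered 89 (0.897% of all genes) and the falls 98 (0.988%). At an unadjusted p under 0.05 there were 1362 genes. The rises ran from 1.25-fold to 2.78-fold and the falls from 1.24-fold to 2.24-fold, and 6 rises and 2 falls reached a factor of 2. The arrays of the 2 genotypes did not overlap for 181 of the 187 genes, against 849 of all genes (8.56%), or 4.48% of all genes with the mutant arrays above and 4.08% with them below. Each chip carried 2 arrays of each genotype, and all 187 genes had the same sign on both chips, as 59.3% of all genes did. The 187 genes were chosen on these same arrays, so neither the lack of overlap nor the shared sign is a separate check. Taken alone, chip 1 gave 0 genes past the threshold and chip 2 gave 1. The median over all genes was 0.01 on the log2 scale, with 52.7% above 0.

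The number of genes past the threshold rested on single arrays. Leaving out WT replicate 1 gave 90 genes and WT replicate 3 gave 80. Leaving out replicate 3 or 4 of A-KO:R-Het gave 68 and 67, and leaving out its replicate 1 gave 225. Without the 3 arrays high in skeletal muscle genes, which left 2 WT arrays, it was 5, and 48 when A-KO:R-Het replicate 1 was left out as well. Of 77 genes past the threshold that the rule for named genes chose, 32 kept their call with any 1 array left out. In 19 of the 187 genes at least 1 WT or A-KO:R-Het array lay at or below the array median, which was 6.54 to 6.58 on the log2 scale. In 2 genes all WT arrays did and in 4 all A-KO:R-Het arrays did, among them Cyp4f18 and Dipk1c, so that these genes passed the filter through other arrays. In both settings with several arrays left out, 186 of the 187 genes were tested. All 186 kept their direction and an unadjusted p under 0.05. Of the 187, 4 kept their call without the 3 arrays, and 35 without A-KO:R-Het replicate 1 as well. Among all genes, 1045 and 1278 had an unadjusted p under 0.05 in these settings. The 187 genes were chosen on the full set of arrays, so a kept direction is no separate check.

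**Figure D1:**
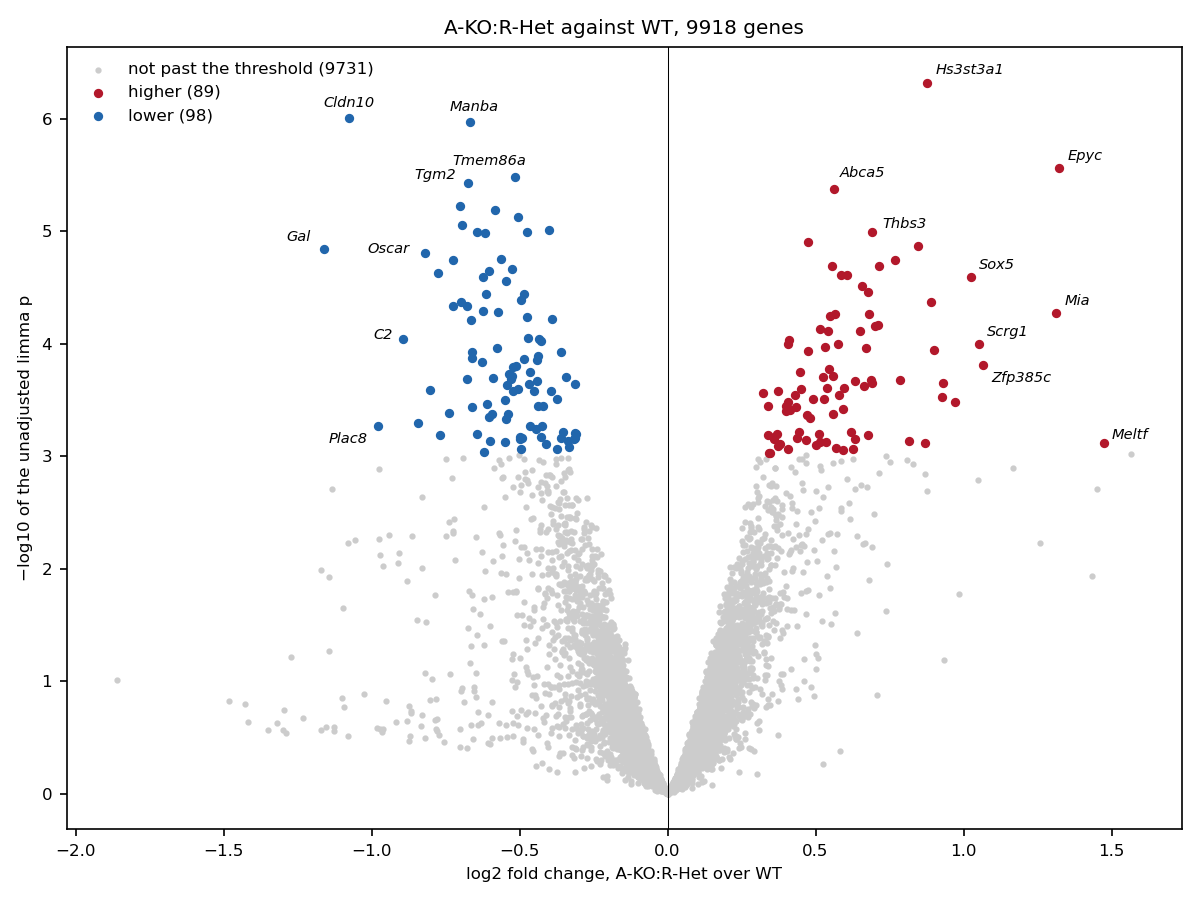
Log2 fold change of A-KO:R-Het over WT (horizontal) against the negative log10 of the unadjusted limma p (vertical) for 9918 genes, with the 89 higher genes in red and the 98 lower genes in blue. Epyc, Mia and Sox5 lie at the right, Gal and Cldn10 at the left, and Hs3st3a1 and Manba are among the highest points. Some labelled genes, such as Abca5 and Tmem86a, were picked after their values were seen.

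Some cartilage genes were higher in the mice with both defects. Of 16 cartilage matrix protein genes measured, 5 rose (Epyc, Mia, Scrg1, Cytl1 and Matn4) and 0 fell, against 0.897% of all genes that rose. All 16 lay above 0, with a median of 0.66 on the log2 scale, and the medians within chip 1 and chip 2 were 0.56 and 0.89. Of 12 transcription factor and signal genes of chondrocytes, the cartilage cells, 2 rose (Sox5 and Wwp2) and 0 fell, with a median of 0.17. Of 6 cartilage collagen genes, 0 passed the threshold, with a median of 0.84 and all 6 above 0. For comparison, the median over all genes was 0.01. The summed intensity of the cartilage matrix genes ran from 11467.8 to 15772.1 over WT and from 16864.4 to 28012.2 over A-KO:R-Het. Over R-Het it ran from 17351.9 to 20608.6, also above WT and within the A-KO:R-Het range, and over A-KO from 8484.75 to 10739.4.

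Epyc had log2 intensity of 6.48, 7.61, 6.59 and 6.86 on the WT arrays and 8.19, 7.97, 8.32 and 8.33 on the A-KO:R-Het arrays. WT replicate 2 was the highest of its genotype and still lay below every A-KO:R-Het array, and the gene was 2.5-fold higher there (1.32 ± 0.19, log2 fold change ± standard error as in all that follows, adjusted p = 0.00597, n = 4 each). Mia, a small protein secreted by chondrocytes, read 9.46, 9.71, 8.58 and 9.49 in WT and 10.85, 9.94, 10.48 and 11.22 in A-KO:R-Het. It was 2.48-fold higher (1.31 ± 0.24, adjusted p = 0.0115), and the lowest A-KO:R-Het array, replicate 2, lay just above the highest WT array. Sox5, a transcription factor that works with Sox9 on cartilage genes, read 8.47, 8.88, 8.42 and 8.96 in WT and 9.96, 9.34, 9.63 and 9.89 in A-KO:R-Het. The groups did not overlap, and Sox5 rose 2.03-fold (1.02 ± 0.17, adjusted p = 0.00795). These 3 genes kept their call when any 1 of the 15 arrays was left out.

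Scrg1, which stimulates formation of cartilage, rose by 1.05 ± 0.20 (adjusted p = 0.0155), with A-KO:R-Het arrays at 8.10, 7.19, 7.58 and 8.31 and WT arrays from 6.35 to 7.06. Matn4 was a bright gene with little spread, at 12.16, 12.07, 12.21 and 12.23 in WT and 12.53, 12.68, 12.78 and 12.91 in A-KO:R-Het, a rise of 1.47-fold (0.56 ± 0.12, adjusted p = 0.0224), and both other probes of the gene had the same sign. Its promoter window is among those printed above. Wwp2, a ubiquitin ligase gene that hosts a cartilage microRNA, rose by 0.56 ± 0.13 (adjusted p = 0.0316) and Cytl1, a secreted protein of chondrocytes, by 0.63 ± 0.15 (adjusted p = 0.0467). The Cytl1 call was lost in 12 of the 15 fits with 1 array left out, where its adjusted p rose to 0.139.

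Several cartilage genes had large differences and widely spread arrays, and did not pass. Col2a1, the main collagen of cartilage, read 12.30, 13.09, 10.83 and 12.32 in WT and 14.02, 12.33, 13.42 and 13.80 in A-KO:R-Het, with a log2 fold change of 1.26 ± 0.40 (adjusted p = 0.133). Ucma, a small secreted protein of cartilage, had the highest log2 fold change of the list, at 1.57 ± 0.39 (adjusted p = 0.0503), and Col9a2 stood at 1.45 ± 0.39 (adjusted p = 0.0729). Acan, the aggrecan core protein, stood at 1.05 ± 0.28 (adjusted p = 0.0657), and Sox9, the leading chondrocyte transcription factor, at 0.63 ± 0.16 (adjusted p = 0.052). In each of these 5 genes WT replicate 3 was the lowest WT array and A-KO:R-Het replicate 2 the lowest of its genotype. Ihh, the signal of maturing chondrocytes, stood at 0.02 ± 0.11 (adjusted p = 0.971). The count of 5 cartilage matrix genes became 9 when A-KO:R-Het replicate 2 was left out, 2 when its replicate 4 or WT replicate 3 was, and 3 when its replicate 3 or WT replicate 1 was. It was 0 without the 3 arrays high in muscle genes, and 1 when A-KO:R-Het replicate 1 was left out too. The 2 chondrocyte factors became 1 when A-KO:R-Het replicate 1, 3 or 4 or WT replicate 3 or 4 was left out, 3 when WT replicate 1, A-KO:R-Het replicate 2 or R-Het replicate 4 was, and 0 in both settings with several arrays left out. The median of the cartilage matrix list lay between 0.49 and 0.82 with any 1 array left out and was 0.52 without all 4 arrays that stood apart.

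**Figure D2:**
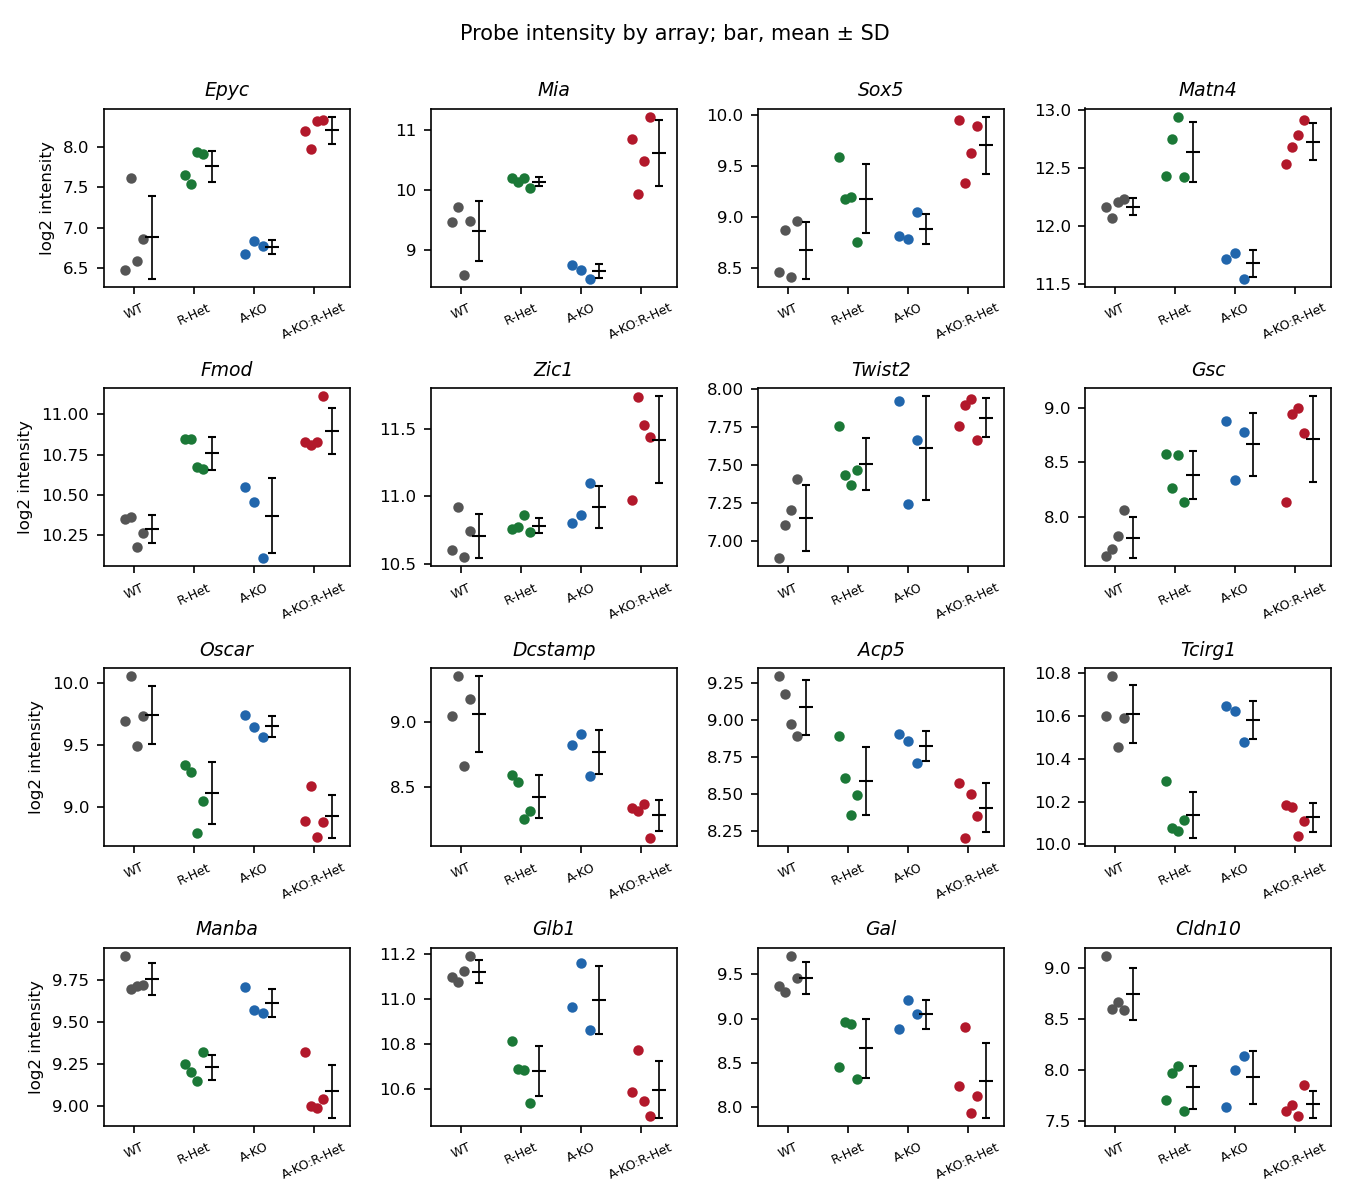
Log2 probe intensity (vertical axis of each panel) of 16 genes on every array, by genotype, with 4 arrays per genotype except 3 for A-KO, and with bars for the mean ± SD. From Epyc to Gsc the A-KO:R-Het points lie above all WT points, and from Oscar to Cldn10 they lie below all WT points. All 16 are past the threshold without overlap in this same comparison, so the separation is no separate check. Genes whose arrays overlapped, such as Col2a1, are not shown.

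Some genes of osteoclasts were lower. Of 16 genes for acid secretion and resorption, 7 fell (Acp5, Tcirg1, Atp6v1b2, Atp6v1c1, Ostm1, Snx10 and Ckb) and 0 rose, against 0.988% of all genes that fell. Of these 16, 15 lay below 0, with a median of -0.40 on the log2 scale. In 10 the A-KO:R-Het arrays lay wholly below WT, against 4.08% of all genes. Of 23 genes for osteoclast formation and fusion, 4 fell (Oscar, Dcstamp, Rac2 and Tnfsf11) and 0 rose, with 20 below 0 and a median of -0.28.

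Oscar, an immunoglobulin-like receptor that co-stimulates osteoclast formation, read 9.69, 10.06, 9.49 and 9.74 in WT and 8.89, 9.17, 8.76 and 8.88 in A-KO:R-Het. Every A-KO:R-Het array lay below every WT array, and the gene was 1.76-fold lower (-0.82 ± 0.13, adjusted p = 0.00772). Dcstamp, which osteoclast precursors need to fuse, read 9.05, 9.36, 8.66 and 9.18 in WT and 8.34, 8.32, 8.37 and 8.11 in A-KO:R-Het, and was 1.71-fold lower (-0.78 ± 0.13, adjusted p = 0.00795). Tnfsf11 encodes RANKL, the cytokine by which osteoblast lineage cells induce osteoclasts. It read 8.33, 8.52, 7.95 and 8.06 in WT and 7.86, 7.37, 7.40 and 7.53 in A-KO:R-Het, with the groups apart by a small margin, and was 1.6-fold lower (-0.68 ± 0.14, adjusted p = 0.0226). Tnfrsf11b, the decoy receptor that neutralizes RANKL, stood at 0.05 ± 0.14 (adjusted p = 0.918), and Csf1, the growth factor of osteoclast precursors, at -0.28 ± 0.09 (adjusted p = 0.136). Nfatc1, the leading transcription factor of osteoclasts, stood at 0.17 ± 0.15 (adjusted p = 0.713), and 1 of its 3 other probes had the opposite sign.

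The acid pump of osteoclasts and lysosomes, the V-ATPase, was lower in several subunits. Tcirg1, the subunit that osteoclasts use to bring the pump to their bone-facing membrane, read 10.60, 10.79, 10.46 and 10.59 in WT and 10.18, 10.18, 10.04 and 10.11 in A-KO:R-Het, a fall of 0.48 ± 0.09 on the log2 scale (adjusted p = 0.00968), and its 3 other probes had the same sign. Atp6v1b2 read 12.36, 12.23, 12.16 and 12.14 in WT and 11.69, 11.58, 11.64 and 11.49 in A-KO:R-Het, and fell by 0.62 ± 0.11 (adjusted p = 0.00795). Atp6v1c1, like Atp6v1b2 a part of the pump's catalytic head and stalk, fell by 0.58 ± 0.09 (adjusted p = 0.00637). Over all 21 subunit genes found by their symbols, a family collected after the values were seen, 7 fell (against 0.988% of all genes), 0 rose and 16 lay below 0, with a median of -0.31. The further members that fell were Atp6v1e1 (-0.44), Atp6v1h (-0.36), Atp6v0b (-0.32) and Atp6v1f (-0.31). Atp6v0d1 stood at 0.11 ± 0.08 (adjusted p = 0.572), and 2 of its 3 other probes had the opposite sign.

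Acp5 read 9.30, 9.18, 8.97 and 8.89 in WT and 8.58, 8.20, 8.50 and 8.35 in A-KO:R-Het. Its groups did not overlap, and it was 1.6-fold lower (-0.68 ± 0.12, adjusted p = 0.0109). Ostm1, the partner of the chloride channel of the resorbing membrane, fell by 0.60 ± 0.10 (adjusted p = 0.00795), while the channel gene Clcn7 stood at -0.15 ± 0.10 (adjusted p = 0.562). Snx10, a sorting protein of osteoclast vesicles, fell by 0.61 ± 0.13 (adjusted p = 0.0281), and Ckb, a creatine kinase that supplies ATP, by 0.43 ± 0.08 (adjusted p = 0.0154). The matrix-degrading enzymes of osteoclasts did not pass, with Ctsk, cathepsin K, at -0.10 ± 0.13 (adjusted p = 0.822) and Mmp9 at -0.33 ± 0.12 (adjusted p = 0.188). The count of 7 acid secretion genes lay between 5 and 7 with any 1 array left out, and was 0 without the 3 arrays high in muscle genes and 1 without all 4 arrays that stood apart. Of the formation genes, 2 passed when any of A-KO:R-Het replicates 2, 3 and 4 or WT replicate 1 was left out, and 1 and 4 passed without those 3 and 4 arrays. The medians of both lists without the 4 arrays were -0.41 and -0.30.

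Among 26 lysosomal enzyme genes that degrade glycan chains, 4 fell (Manba, Glb1, Hexa and Arsb) and 0 rose, with a median of -0.20, against 0.988% of all genes that fell. Manba, a mannosidase, read 9.89, 9.69, 9.71 and 9.72 in WT, 9.32 on A-KO:R-Het replicate 1 and 8.99 to 9.04 on the other three. It had one of the smallest adjusted p-values, at 0.0035, and was 1.59-fold lower (-0.67 ± 0.09). Glb1, whose promoter window is printed above, was steady in WT at 11.10, 11.08, 11.12 and 11.19 and lower in A-KO:R-Het at 10.59, 10.77, 10.55 and 10.48 (-0.52 ± 0.09, adjusted p = 0.00795). Hexa, a subunit of beta-hexosaminidase, fell by 0.51 ± 0.10 (adjusted p = 0.02). Arsb, a sulfatase of dermatan and chondroitin sulfate, fell by 0.77 ± 0.18 (adjusted p = 0.0421), with overlap of the groups at 11.55, and lost its call in 8 of the 15 fits with 1 array left out. The count of 4 became 2 when any of replicates 1 and 3 of WT and 3 and 4 of A-KO:R-Het was left out. It was 0 without the 3 arrays high in muscle genes and 1 without the 4.

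Genes of white blood cells, to whose lineage osteoclasts belong, mostly lay below 0 beside them. Of all genes 0.988% fell. Of 21 macrophage and monocyte genes 1 fell, Plac8 (-0.98 ± 0.23, adjusted p = 0.0378), with a list median of -0.15. Of 15 B cell genes 1 fell, Mzb1, a chaperone of antibody-making cells (-0.66 ± 0.13, adjusted p = 0.0165), and 14 lay below 0, with a median of -0.31. Neutrophil genes had 0 of 24 past the threshold, 23 below 0 and a median of -0.70, and erythroid genes 0 of 21 and a median of -0.31. The A-KO:R-Het arrays lay wholly below WT for 6 B cell, 3 macrophage and monocyte, 3 neutrophil and 1 erythroid genes, against 4.08% of all genes. They lay wholly above WT for 1 macrophage and monocyte gene and for 0 of the other lists, against 4.48% of all genes. The summed intensity of the neutrophil genes ran from 29015.5 to 46455.2 over the WT arrays and from 16894.9 to 32516.9 over the A-KO:R-Het arrays. That of the B cell genes ran from 2044.57 to 2981.84 and from 1683.85 to 2011.30. For macrophage and monocyte genes the sum ran from 10264.6 to 11912.0 in WT and from 8855.71 to 10442.5 in A-KO:R-Het, so the ranges overlapped. The part of these cells in the lower osteoclast and lysosome genes was not tested.

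A list of filamin and actin-binding regulators, which was drawn up with results of these data known, held 7 of 14 genes that fell and 1 that rose, against 0.988% and 0.897% of all genes. Because of that choice these counts only describe the list. Rac2 was also counted among the 4 osteoclast formation genes that fell. Rac2 (-0.80 ± 0.17), Coro1a (-0.54 ± 0.11) and Lcp1 (-0.55 ± 0.12) act in the actin skeleton of blood cells, and Cytip (-0.84 ± 0.19) restrains adhesion of white cells (adjusted p = 0.0241, 0.0221, 0.0267 and 0.0363). Rassf4, Pacsin1 and Fblim1, the filamin-binding protein migfilin, fell by 0.74 ± 0.17, 0.73 ± 0.13 and 0.44 ± 0.10 (adjusted p = 0.0312, 0.0109 and 0.0287), and 1 of 2 other Pacsin1 probes had the opposite sign. Rflna, refilin A, which binds filamins in growing cartilage and bone, rose by 0.97 ± 0.21 (adjusted p = 0.0275). It read 7.58, 8.40, 7.47 and 8.25 in WT and 8.89, 8.54, 8.97 and 9.17 in A-KO:R-Het. Of these 7, the number that passed was 1 when A-KO:R-Het replicate 3 or WT replicate 2 was left out, 2 when A-KO:R-Het replicate 4 or WT replicate 1 was, 3 when A-KO:R-Het replicate 2 or WT replicate 3 was, and 4 when WT replicate 4 was. It was 0 without the 3 arrays high in muscle genes and 1 without the 4.

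**Figure D3:**
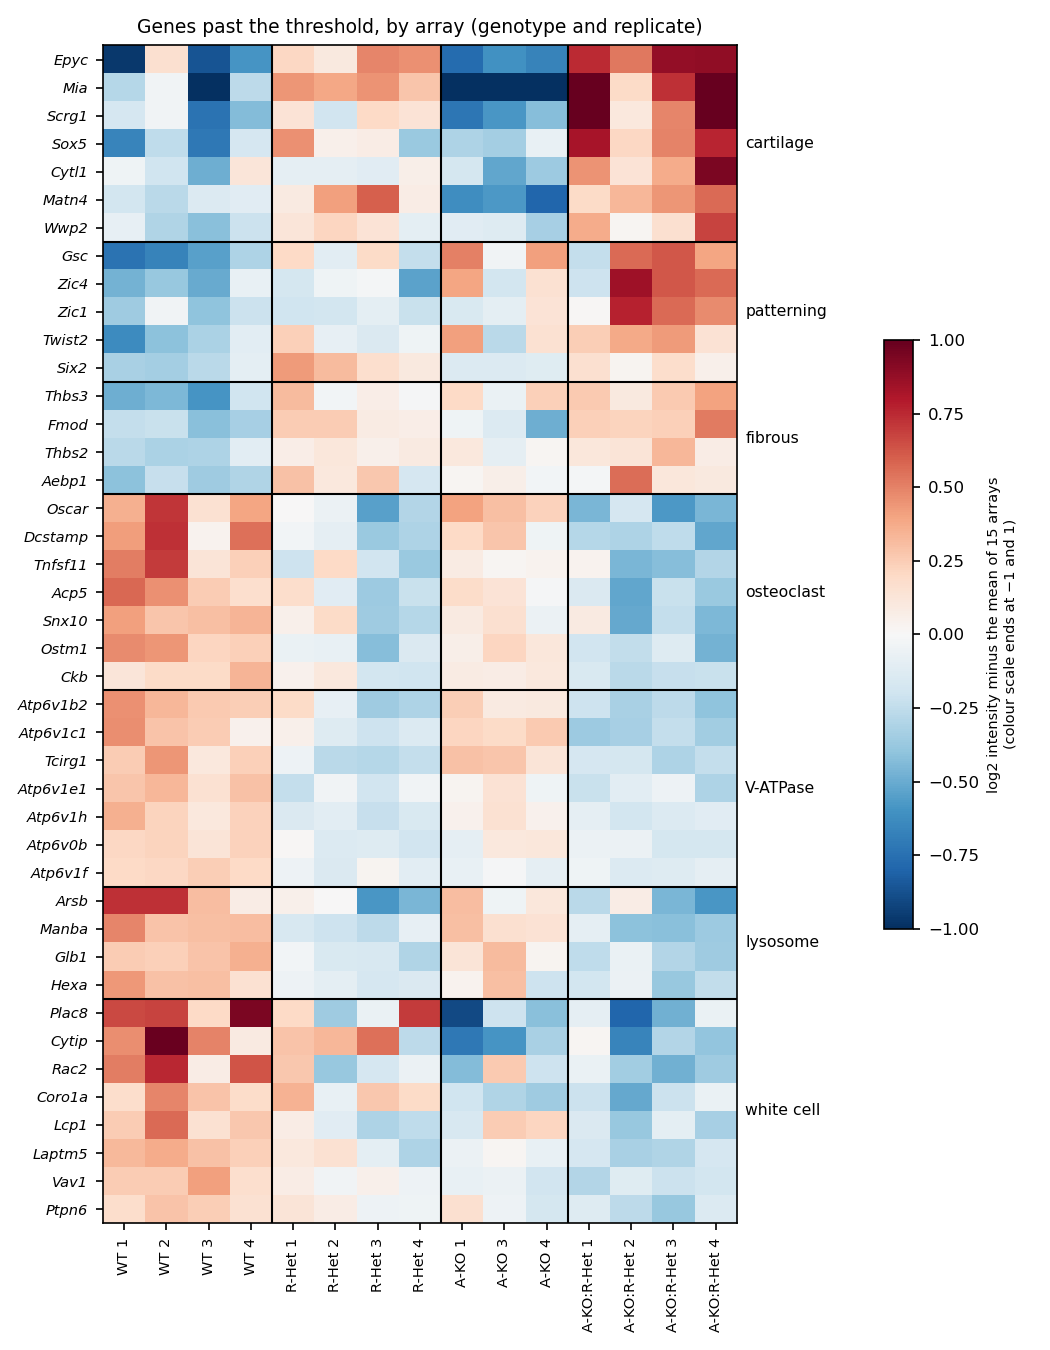
Log2 intensity minus the mean of the 15 arrays, with genes past the threshold in rows and arrays in columns by genotype and replicate, and with a colour scale that ends at -1 and 1. In A-KO:R-Het the cartilage, patterning and fibrous genes lie mostly above the mean of the arrays and the osteoclast, V-ATPase, lysosome and white cell genes below it, and WT mostly shows the opposite. Laptm5, Vav1, Ptpn6, Aebp1 and 4 of the Atp6v genes (Atp6v1e1, Atp6v1h, Atp6v0b and Atp6v1f) were picked after their values were seen.

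Patterning genes of the cranial mesenchyme were higher in part. Of 30 such genes, 4 rose (Gsc, Zic1, Zic4 and Six2) and 0 fell, with a median of 0.10, against 0.897% of all genes that rose. Gsc, the homeobox gene goosecoid of craniofacial mesenchyme, read 7.64, 7.70, 7.83 and 8.07 in WT and 8.14, 8.94, 8.99 and 8.77 in A-KO:R-Het, with replicate 1 nearest to WT, and was 1.87-fold higher (0.90 ± 0.18, adjusted p = 0.0165). Zic1, a zinc finger factor of the cranial mesenchyme and meninges, read 10.61, 10.92, 10.56 and 10.74 in WT and 10.97, 11.73, 11.53 and 11.44 in A-KO:R-Het (0.71 ± 0.13, adjusted p = 0.0129). Its relative Zic4 rose by 0.81 ± 0.19 (adjusted p = 0.0434), with replicate 1 of A-KO:R-Het, at 7.89, below the highest WT array, at 8.02. Six2, a homeobox factor, rose by 0.36 ± 0.09 (adjusted p = 0.0427). The Zic4 and Six2 calls were lost in 10 and 11 of the 15 fits with 1 array left out. Twist2, a factor that holds back osteoblast maturation, read 6.88, 7.11, 7.20 and 7.41 in WT and 7.76, 7.89, 7.94 and 7.66 in A-KO:R-Het, and rose 1.58-fold (0.66 ± 0.14, adjusted p = 0.0233).

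The count of 4 patterning genes became 0 when A-KO:R-Het replicate 3 was left out and 1 when its replicate 4 or WT replicate 1 was. It became 2 when A-KO replicate 4, R-Het replicate 3, A-KO:R-Het replicate 2 or WT replicate 2 or 3 was left out, 0 without the 3 arrays high in muscle genes, and 3 without the 4 arrays that stood apart. Meninges genes, a list that shares Zic1 with the patterning genes, were also higher in part. Of 17 measured, 3 rose, namely Zic1, Igfbp2 and Mgp, against 0.897% of all genes that rose. The list median was 0.15, and its summed intensity ran from 39367.2 to 43836.3 over WT and from 44707.2 to 48793.0 over A-KO:R-Het. The meninges markers Ptgds and Slc6a13 were not among the genes tested. Slc6a13 read 7.28 on A-KO:R-Het replicate 1 and 5.75 to 6.25 on the other 14 arrays. Igfbp2, a binding protein of insulin-like growth factors, rose by 0.87 ± 0.21 and Mgp, an inhibitor of mineralization, by 0.41 ± 0.10 (adjusted p = 0.044 and 0.0467), and both calls were lost in 12 of the 15 fits with 1 array left out. The count of meninges genes was 1 when A-KO:R-Het replicate 1, 2 or 4, any WT or A-KO array or R-Het replicate 3 was left out, and 0 when A-KO:R-Het replicate 3 was. Zic1 kept its call in 14 of the 15 fits with 1 array left out. Among these was the fit without A-KO:R-Het replicate 1. That array was the lowest of its genotype for Zic1, so leaving it out could only widen the difference. The part of meningeal tissue in the patterning genes was not tested.

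Fibrous matrix genes of tendon, periosteum and suture had 2 of 37 members that rose, Thbs3 and Thbs2, 1 that fell, Dpp4, and a median of 0.19, against 0.897% and 0.988% of all genes. Thbs3, a thrombospondin of skeletal matrix, read 9.17, 9.21, 9.07 and 9.46 in WT and 9.92, 9.76, 9.93 and 10.07 in A-KO:R-Het, and was 1.61-fold higher (0.69 ± 0.11, adjusted p = 0.00637). Thbs2, a thrombospondin of collagen fibre assembly, rose by 0.41 ± 0.08 (adjusted p = 0.0154). Dpp4, a peptidase on the surface of fibroblasts and white cells, fell by 0.60 ± 0.14 (adjusted p = 0.0435), and its call was lost in 10 of the 15 fits with 1 array left out. Among 13 small leucine-rich proteoglycans 2 rose, Epyc and Fmod, with a median of 0.06. Fmod, fibromodulin, which binds collagen fibrils, read 10.35, 10.37, 10.18 and 10.26 in WT and 10.83, 10.81, 10.83 and 11.11 in A-KO:R-Het (0.61 ± 0.10, adjusted p = 0.00795). The 2 fibrous genes that rose became 4 when A-KO:R-Het replicate 1 was left out, 3 when R-Het replicate 1, 2 or 4 was, and 1 when replicate 3 of WT or of A-KO:R-Het was.

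Most genes of mature osteoblasts did not pass. Of 25 osteoblast matrix and mineralization genes, 0 rose and 2 fell (Ank and Bmp3), against 0.897% and 0.988% of all genes. The median was -0.06. In 5 of the 25 the A-KO:R-Het arrays lay wholly below WT, against 4.08% of all genes, and in 0 wholly above. Bglap stood at 0.01 ± 0.12 (adjusted p = 0.988), with both its other probes of the opposite sign, and Ibsp, bone sialoprotein, at -0.13 ± 0.28 (adjusted p = 0.892). Ank, which exports pyrophosphate and so restrains crystal growth, read 12.08, 11.94, 12.18 and 12.18 in WT and 11.61, 11.51, 11.71 and 11.57 in A-KO:R-Het (-0.50 ± 0.09, adjusted p = 0.0106). Bmp3, a bone morphogenetic protein that antagonizes others, fell by 0.43 ± 0.10 (adjusted p = 0.0425). The Bmp3 call was lost in 10 of the 15 fits with 1 array left out, while that of Ank was kept in all 15. Of 16 osteoblast transcription factors Twist2 rose and Hey1, a Notch target, fell (-0.62 ± 0.15, adjusted p = 0.0494), with a median of 0.02. The Hey1 call was lost in 13 of the 15 fits with 1 array left out, where its adjusted p rose to 0.163. Of 12 osteocyte genes 0 passed, with Dmp1 at -0.56 ± 0.20 and Phex at -0.40 ± 0.13, both regulators of phosphate (adjusted p = 0.182 and 0.145), and a median of -0.12.

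**Figure D4:**
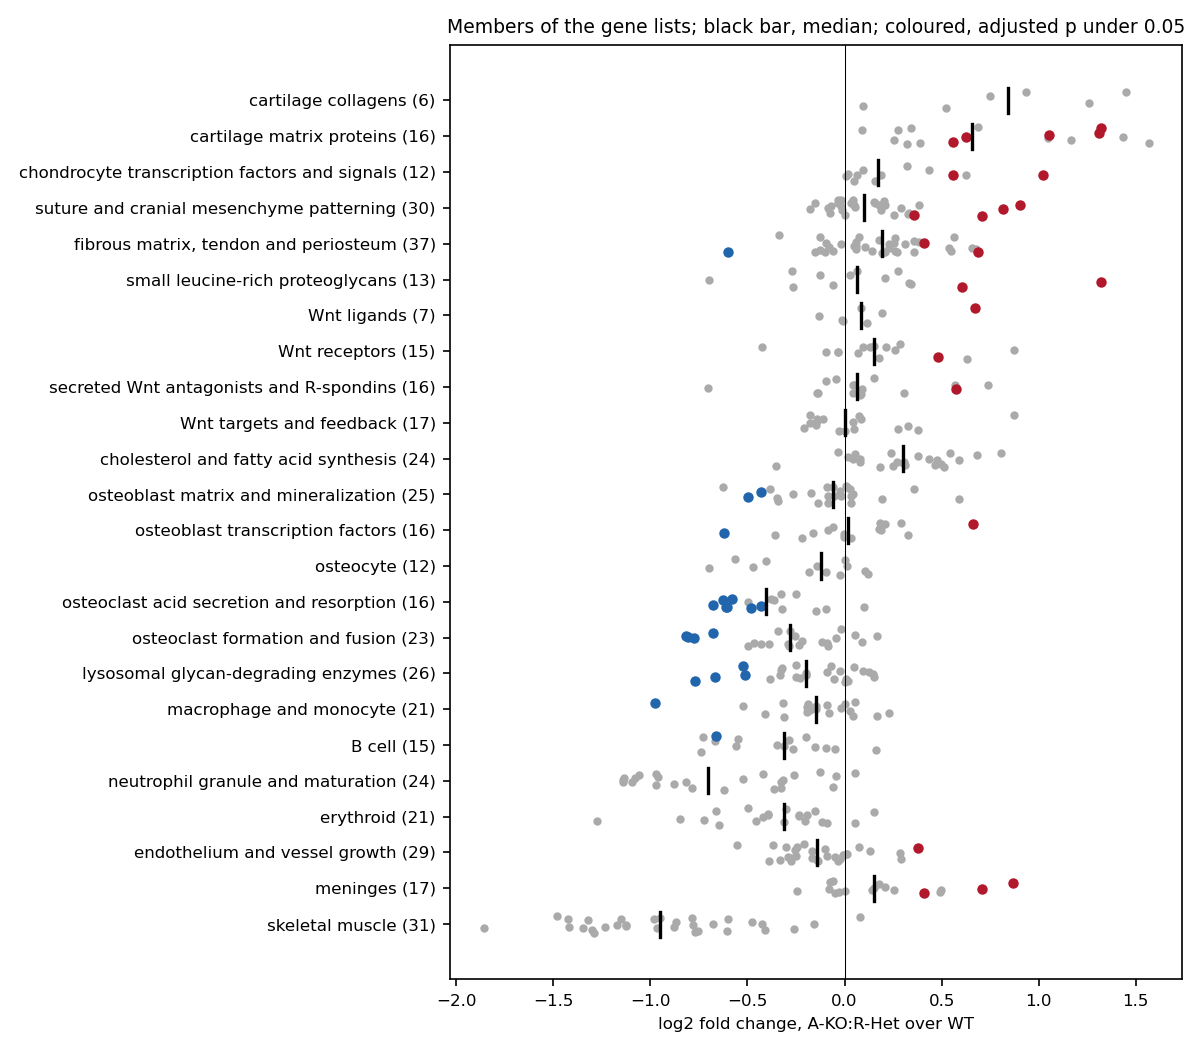
Log2 fold change of A-KO:R-Het over WT for every measured member of 24 gene lists, with the number measured in parentheses, members past the threshold in red (higher) or blue (lower), and the list median as a black bar. Cartilage medians reach 0.84, both osteoclast medians lie at -0.40 and -0.28, and skeletal muscle lies lowest at -0.95 with 0 members past the threshold.

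In some Wnt lists 1 member passed the threshold, against 0.897% of all genes that rose. Of 7 Wnt ligands 1 rose, Wnt10a, which acts through beta-catenin in mesenchyme, at 6.72, 6.56, 6.56 and 6.56 in WT and 7.25, 7.04, 7.27 and 7.53 in A-KO:R-Het (0.67 ± 0.13, adjusted p = 0.0162). Of 15 receptors 1 rose, Ror2, the receptor of Wnt5a (0.48 ± 0.11, adjusted p = 0.033), and of 16 secreted antagonists and R-spondins 1 rose, Dkk3 (0.58 ± 0.11, adjusted p = 0.0155). The medians of these lists were 0.09, 0.15 and 0.06. The A-KO:R-Het arrays lay wholly above WT for 1, 5 and 3 of their genes, against 4.48% of all genes, and wholly below for 0. Of 17 Wnt targets and feedback genes 0 passed, with a median of 0.00, and of 17 genes of the beta-catenin destruction complex and its effectors 0 passed, with a median of 0.07. Lgr5, a Wnt target and R-spondin receptor, read 6.40, 6.34, 6.60 and 6.31 in WT and 6.76, 7.39, 7.94 and 7.06 in A-KO:R-Het, groups that did not overlap, but missed the threshold (0.88 ± 0.24, adjusted p = 0.074). Most of its WT values lay below the array median of 6.54 to 6.58, and 1 WT array of Wnt10a lay at or below it. The size of both differences therefore rests on dim signal. Ccnd1, the cyclin D1 gene, stood at 0.33 ± 0.11 (adjusted p = 0.14).

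In other signalling lists few members passed, while 0.897% of all genes rose and 0.988% fell. Hhip, which binds hedgehog ligands and restrains them, was the 1 of 7 hedgehog genes that rose, at 7.22, 7.09, 6.93 and 7.21 in WT and 7.79, 7.99, 7.52 and 7.85 in A-KO:R-Het (0.68 ± 0.12, adjusted p = 0.00968). Fgf10 was the 1 of 14 FGF genes that rose (0.45 ± 0.10, adjusted p = 0.0241). Of 32 BMP and TGF-beta genes 0 rose and 1, Bmp3, fell. Of 14 IGF genes 2 rose, Igfbp2 and Igfals, which stabilizes IGF complexes (0.45 ± 0.09, adjusted p = 0.0215), and this count was 0 when A-KO:R-Het replicate 3 or 4 or WT replicate 1 was left out and 1 when any A-KO array, any other array of WT or A-KO:R-Het, or R-Het replicate 3 was. In the Notch list of 20 genes, Rbpjl, a relative of the Notch effector Rbpj, rose by 0.93 ± 0.20 (adjusted p = 0.0231) and Hey1 fell, by the call described above. Hs3st3a1, which adds a rare sulfate to heparan chains, was among the genes with the smallest adjusted p, at 8.58, 8.11, 8.34 and 8.41 in WT and 9.18, 9.18, 9.46 and 9.12 in A-KO:R-Het (0.88 ± 0.11, adjusted p = 0.0035), and was the 1 of 31 proteoglycan chain synthesis genes past the threshold. Alcam, an adhesion molecule of mesenchyme, rose by 0.93 ± 0.20 (adjusted p = 0.026).

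The deepest falls past the threshold were of Gal and Cldn10. Gal, the precursor of the neuropeptide galanin, read 9.37, 9.30, 9.71 and 9.46 in WT and 8.23, 8.90, 7.93 and 8.13 in A-KO:R-Het, and was 2.24-fold lower (-1.16 ± 0.19, adjusted p = 0.00745). Cldn10, a claudin of tight junctions, read 9.12, 8.60, 8.66 and 8.59 in WT and 7.60, 7.66, 7.55 and 7.85 in A-KO:R-Het, and was 2.11-fold lower (-1.08 ± 0.14, adjusted p = 0.0035). Both other probes of Cldn10 had the same sign, and both genes kept their call with any 1 array left out. In the list of 12 neuropeptide and sensory genes, Ramp1, a subunit of the receptor of calcitonin gene-related peptide, also fell (-0.60 ± 0.14, adjusted p = 0.0328). Tac1, the precursor of substance P, rose, at 6.53, 7.19, 6.50 and 7.04 in WT and 7.45, 7.65, 7.97 and 7.75 in A-KO:R-Het (0.89 ± 0.16, adjusted p = 0.0106). Of the 12 genes in this list 2 fell and 1 rose, against 0.988% and 0.897% of all genes. On 2 of the WT arrays Tac1 lay at or below the array median, so the size of its difference rests on dim signal. The Ramp1 call was lost when any A-KO:R-Het array or WT replicate 1 or 3 was left out, and leaving out WT replicate 2 gave 3 falls in the list.

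Further falls came from genes of several roles. Dapk2, a kinase of cell death signalling, fell by 0.72 ± 0.12 (adjusted p = 0.00781), Pkp2, a desmosomal plakophilin, by 0.70 ± 0.11 (adjusted p = 0.00637), and Mt3, a metallothionein, by 0.70 ± 0.12 (adjusted p = 0.0106). Tgm2, a transglutaminase that cross-links matrix, was steady in WT, from 10.99 to 11.08, and lower in A-KO:R-Het, at 10.64, 10.18, 10.38 and 10.21 (-0.67 ± 0.10, adjusted p = 0.00597). Cd84, a receptor of white cells, fell by 0.70 ± 0.11 (adjusted p = 0.00637), and Cyp4f18, an enzyme that inactivates leukotrienes in white cells, by 0.67 ± 0.12 (adjusted p = 0.0119). In 3 short lists 1 member fell, while 0.988% of all genes fell. C2, the complement component, was the 1 of 17 complement and coagulation genes past the threshold (-0.90 ± 0.17, adjusted p = 0.0153). Cxcl12, the chemokine that holds blood-forming cells in marrow, was the 1 of 14 marrow niche genes (-0.48 ± 0.10, adjusted p = 0.0182), and Pparg, the adipocyte regulator, the 1 of 15 adipocyte genes (-0.48 ± 0.09, adjusted p = 0.0116).

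The remaining large rises were of Zfp385c, a zinc finger gene (1.06 ± 0.22, adjusted p = 0.0199), Col26a1, a collagen (0.85 ± 0.14, adjusted p = 0.00745), Wfdc2, a secreted protease inhibitor (0.77 ± 0.13, adjusted p = 0.00781), and Mrgprf, an orphan receptor (0.71 ± 0.12, adjusted p = 0.00795). Prmt8, an arginine methyltransferase, Aard and Xpnpep2, an aminopeptidase, rose by 0.70 ± 0.13, 0.69 ± 0.14 and 0.68 ± 0.12 (adjusted p = 0.0129, 0.0226 and 0.0115). Meltf, a cell surface iron-binding protein named here after its values were seen, had the largest rise of the genes past the threshold (1.47 ± 0.35, adjusted p = 0.044), but its arrays overlapped, at 7.56, 7.88, 6.77 and 7.65 in WT and 9.78, 7.69, 8.66 and 9.62 in A-KO:R-Het. Ramp2, a receptor partner for adrenomedullin, was the 1 of 29 endothelial genes that passed (0.38 ± 0.09, adjusted p = 0.0443), against 0.897% of all genes that rose. Its call was lost in 10 of the 15 fits with 1 array left out, where the adjusted p rose to 0.133, and 22 of the 29 genes lay below 0.

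Some lists leaned to one side without members past the threshold. Of 24 genes of cholesterol and fatty acid synthesis 22 lay above 0 with a median of 0.30, led by Sqle, squalene epoxidase (0.81 ± 0.20, adjusted p = 0.052). Of 23 interferon response genes 22 lay below 0, with a median of -0.22, and of 42 mitochondrial respiration genes 37 lay below 0, with a median of -0.15. Of 31 skeletal muscle genes 30 lay below 0, with a median of -0.95. Without the 3 arrays high in muscle genes, the skeletal muscle median was 0.07, the mitochondrial median -0.02, the interferon median -0.38 and the lipid synthesis median 0.23.

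The comparison with A-KO shows where the mice with both defects differed from loss of Axin2 alone. Both comparisons hold the same 4 A-KO:R-Het arrays. In all, 55 genes differed (0.555% of all genes), 35 higher (0.353%) and 20 lower (0.202%) in A-KO:R-Het (n = 4) than in A-KO (n = 3), and 1072 had an unadjusted p under 0.05. Of 16 cartilage matrix genes 8 rose (median 1.12) and of 6 cartilage collagens 3 rose (median 1.09). The 8 became 4, 1 and 2 when A-KO replicate 1, 3 or 4 was left out, 5 and 3 when A-KO:R-Het replicate 1 or 4 was, and lay between 6 and 10 for each other array. The 3 collagens became 0 when any A-KO array, A-KO:R-Het replicate 1, 3 or 4, WT replicate 1 or R-Het replicate 3 was left out, and 1 when WT replicate 4 was. Matn1, a matrilin, read 10.39, 10.20 and 9.12 in A-KO and 13.37, 11.46, 12.55 and 12.97 in A-KO:R-Het (2.69 ± 0.54, adjusted p = 0.0405), and Ucma 7.03, 7.18 and 6.86 against 10.05, 8.53, 9.59 and 10.33 (2.60 ± 0.42, adjusted p = 0.0159). Col2a1 and Col9a2 both rose by 2.15 (± 0.43 and ± 0.42), Mia by 1.98 ± 0.26, Epyc by 1.44 ± 0.20, Comp, a thrombospondin of cartilage, by 1.30 ± 0.24, and Scrg1 by 1.28 ± 0.22. Rbpjl and Zfp385c rose by 1.19 ± 0.21 and 1.23 ± 0.23.

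The genes that fell against A-KO were led by Asic3, an acid-sensing channel (-0.81 ± 0.13, adjusted p = 0.0113), and Ccn5, a matricellular protein (-0.81 ± 0.17, adjusted p = 0.0454). Oscar, Pacsin1 and Atp6v1c1 fell by 0.72 ± 0.14, 0.67 ± 0.14 and 0.54 ± 0.10 (adjusted p = 0.0394, 0.0454 and 0.0272). Guca1a, Dipk1c, Kcnj15, Gm266 and Psat1, a serine synthesis enzyme, fell by 0.63, 0.60, 0.58, 0.56 and 0.58. Leaving out A-KO replicate 1, 3 or 4 turned the 55 genes into 9, 1 and 3. Leaving out replicate 1, 3 or 4 of A-KO:R-Het gave 26, 15 and 7, and WT replicate 1 or 4 gave 22 and 28. Leaving out R-Het replicate 3 gave 28 and its replicate 4 gave 85, and 24 passed without the 4 arrays that stood apart.

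Against R-Het, 0 genes passed in limma (0% of all genes), with 641 at an unadjusted p under 0.05 and a smallest adjusted p of 0.183. That count was 1 without A-KO:R-Het replicate 1, 1 without the 3 arrays high in muscle genes, and 38 without all 4 arrays that stood apart. List medians were nearer to 0 than against WT. They were 0.36 for cartilage matrix genes (0.66 against WT) and 0.35 for cartilage collagens (0.84). For osteoclast acid secretion genes the median was -0.08 (-0.40 against WT), and for osteoclast formation genes -0.12 (-0.28). The smallest adjusted p was that of Abca5, a membrane transporter gene that lies 10 tested genes from Axin2 in the RefSeq order. Abca5 read 6.38, 6.32, 6.53 and 6.61 in WT, 6.47, 6.51, 6.58 and 6.54 in R-Het, 7.33, 7.11 and 7.14 in A-KO, and 6.99, 6.93, 7.08 and 7.08 in A-KO:R-Het, so all arrays without Axin2 lay above all others. Against WT it passed (adjusted p = 0.00597), but 3 of the 4 WT arrays lay at or below the array median, so the size of the difference rests on dim signal. Among the 50 tested genes nearest to Axin2, 2 passed against WT, Abca5 and Slc9a3r1 (-0.62), and among the 50 nearest to Runx2, 2 passed, Enpp5 (-0.49) and Klc4 (-0.47). Slc9a3r1, Enpp5 and Klc4 are named by position alone. That is 4%, against 1.89% of all genes.

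The interaction asks whether the difference of A-KO:R-Het from WT departs from the sum of the A-KO and R-Het differences on the log2 scale. It gave 0 genes in limma (0% of all genes), 611 at an unadjusted p under 0.05, and a smallest adjusted p of 0.743. The count was 1 without R-Het replicate 3. For the genes the comparison turned on, all genotypes can be set side by side as values. Mia lay at 10.03 to 10.20 in R-Het, 8.52 to 8.75 in A-KO, 8.58 to 9.71 in WT and 9.94 to 11.22 in A-KO:R-Het, so that WT overlapped A-KO and R-Het overlapped A-KO:R-Het (interaction 1.15, adjusted p = 0.743). Oscar lay at 8.80 to 9.34 in R-Het and 9.57 to 9.74 in A-KO (interaction -0.10, adjusted p = 0.962), and Manba at 9.14 to 9.32 and 9.55 to 9.70 (interaction 0.00, adjusted p = 0.999). Cldn10 lay at 7.60 to 8.04 in R-Het and 7.64 to 8.14 in A-KO, so that every array of the 3 mutant genotypes lay below every WT array (interaction 0.65, adjusted p = 0.743). Zic1 lay at 10.74 to 10.87 in R-Het and 10.81 to 11.10 in A-KO, below A-KO:R-Het replicates 2, 3 and 4 (interaction 0.42, adjusted p = 0.788). A p that misses the threshold does not show that the genotypes add up without remainder.

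**Figure D5:**
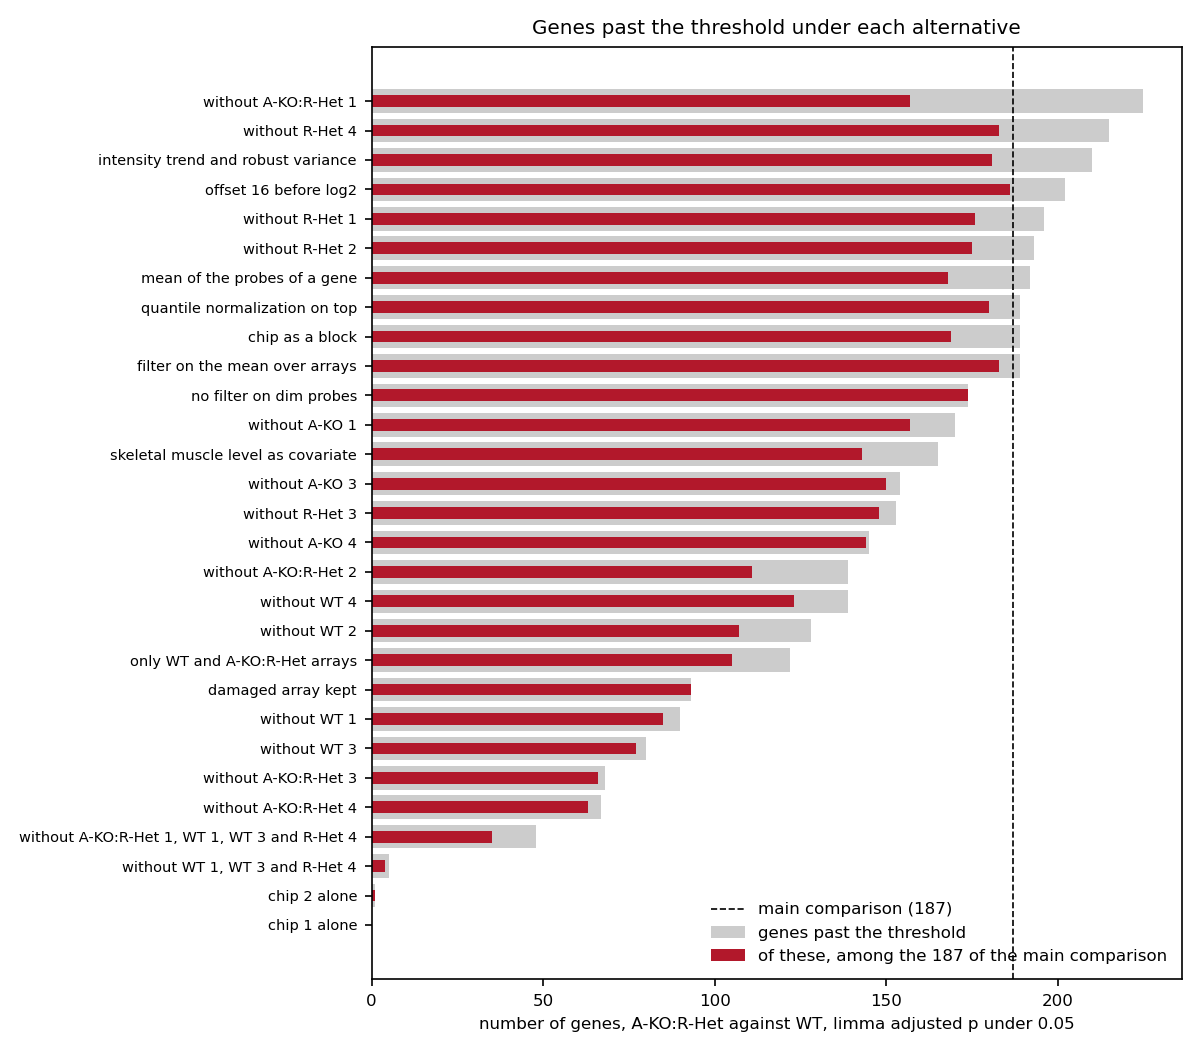
Number of genes past the threshold between A-KO:R-Het and WT (horizontal) under each alternative (vertical), in grey, and in red the number of these among the 187 genes of the comparison as reported, marked by the dashed line. The bars run from 0 with chip 1 alone to 225 without A-KO:R-Het replicate 1.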

How the data were processed

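Expression was measured on Illumina bead arrays with 1 colour. Total RNA was extracted with TRIzol and 200 ng was amplified to biotin-labelled cRNA, per the labels' protocols. The authors deposited a table of normalized probe intensity on a linear scale. The authors' background correction and normalization method were not given in the sources used here. Array medians lay between 92.9 and 95.5. A second table with 32 columns of signals and detection values was not used here, as its columns match no sample label. Groups came from the genotype labels. Replicates were numbered in the order of the records. The array whose label calls it damaged (A-KO replicate 2) was left out. How mice were drawn from litters is not given, so litter could not be modelled. The p-values set a difference between genotypes against the spread between mice of the same genotype, estimated from all arrays fitted.

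Of 25697 probes, 23978 had 1 gene symbol in the platform annotation. Entrez identifiers of 23962 probes matched RefSeq (GRCm38.p6), which changed 0 symbols. Probes above the array median on at least 3 of 15 arrays were kept (14212, of which 13381 were named), and the probe with the highest mean stood for a gene, as for 2505 genes with several, giving 9918 genes. Log2 intensity was fitted with 1 mean per genotype in limma 3.58.1 (R 4.3.3), with empirical Bayes moderation and Benjamini-Hochberg adjustment over all genes at 0.05. The code was tested on simulated data. The 56 gene lists and the genes compared were chosen with earlier results of these data known, so list counts are a description. Named genes are the 20 largest rises and falls past the threshold without overlap of the arrays, list members past the threshold, for a list with fewer than 2 of these the 2 members with the largest change over its standard error, up to 10 genes in each direction in the comparisons with A-KO and R-Het and in the interaction, and Axin2. Genes named as context for these, such as markers and decoy receptors, carry their values without a call. Not each gene the rule selects is described. Alternatives covered arrays left out, chip, scaling, offset, filter, probe choice, variance model and skeletal muscle level. The number of arrays limits the precision.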

Additional observations from a re-analysis of the deposited data

Results flagged for a closer look

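In groups of 4 arrays, 15 of 304 groups (152 named genes in WT and A-KO:R-Het) held 1 array farther from the rest than Dixon's 95% limit allows, or 4.93%, and chance gives about 5%. Values are log2 intensity. Hs3st3a1 read 9.46 on A-KO:R-Het replicate 3, above the other three at 9.12 to 9.18. On WT replicate 4, Mrgprf stood at 8.83, above the 8.53 to 8.56 of the rest of its genotype. For Wnt10a, WT replicate 1 lay above its group, at 6.72 against 6.56 on each of the rest. Fmod read 11.11 on A-KO:R-Het replicate 4, above the other three at 10.81 to 10.83. On A-KO:R-Het replicate 2, Elovl6 stood at 8.23, below the 8.52 to 8.53 of the rest of its genotype. For Cdkn1c, WT replicate 4 lay below its group, at 12.81 against 12.97 on each of the rest. Axin2 read 7.74 on A-KO:R-Het replicate 4, above the other three at 7.39 to 7.44. On WT replicate 4, Fblim1 stood at 9.51, above the 9.29 to 9.32 of the rest of its genotype. For Dipk1c, WT replicate 2 lay below its group, at 6.61 against 6.75 to 6.77. Pparg read 7.13 on A-KO:R-Het replicate 3, above the other three at 6.99 to 7.01. On A-KO:R-Het replicate 3, Dmp1 stood at 7.52, below the 7.85 to 7.89 of the rest of its genotype. For Hdc, WT replicate 2 lay above its group, at 8.08 against 7.61 to 7.65. Manba read 9.89 on WT replicate 1, above the other three at 9.69 to 9.72. On A-KO:R-Het replicate 1, Manba stood at 9.32, above the 8.99 to 9.04 of the rest of its genotype. For Cldn10, WT replicate 1 lay above its group, at 9.12 against 8.59 to 8.66. Of the 9 genes past the threshold among these, Hs3st3a1, Mrgprf, Manba, Cldn10, Fmod and Pparg kept their calls with any 1 of the 15 arrays left out. Wnt10a kept its call in 12 of 15 such fits, Dipk1c in 10 and Fblim1 in 9, and Fblim1 lost it without the array that stood apart, WT replicate 4 (adjusted p = 0.0823 in limma).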

How the results depend on the processing

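With 1 array left out, the 187 genes between A-KO:R-Het and WT became 67 to 225, the 89 higher 26 to 113, the 98 lower 41 to 112, and the 55 genes against A-KO 1 to 85, while the 0 against R-Het and the 0 of the interaction became at most 1. The counts of all, higher and lower genes were 122, 51 and 71 with the 8 WT and A-KO:R-Het arrays alone, 0, 0 and 0 on chip 1 alone, 1, 1 and 0 on chip 2 alone, 93, 44 and 49 with the damaged array kept, and 5, 1 and 4 when the 3 muscle-rich arrays (WT 1 and 3, R-Het 4) were left out. With A-KO:R-Het replicate 1 left out as well, an alternative chosen after seeing the data, they were 48, 22 and 26. The 55 genes against A-KO were 0 on chip 1 alone, 1 on chip 2 alone, 23 with the damaged array kept and 24 in the added setting. The 0 genes against R-Het were 1 without the 3 arrays and 38 in the added setting. Fewer arrays were fitted in the settings that leave arrays out; the cause of the other shifts was not tested. Chip as a block gave 189 genes, of which 169 were among the 187, quantile normalization 189, an added offset of 16 before log2 202, no filter 174, a filter on the mean 189, the mean of a gene's probes 192, the muscle level as a covariate 165 and an intensity trend 210. In each of the 29 alternatives every tested gene of the 187 kept its direction, though these genes were chosen on the same arrays. Of 77 named genes past the threshold, 32 kept their call with any 1 array left out. Among genes not past it, 3 reversed: Sprr2a1 was -0.074 on chip 1 alone, Psat1 0.0427 on chip 2 alone and Pvalb 0.18 in the added setting. No paired analysis was possible because the labels carry no replicate numbers that pair mice across genotypes, and chip was the only block fitted. Values near the array median rest on signal close to background, which is not given here.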
